A study of Homo sapiens with 9 samples.

Results

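The mitochondrial ribosomal protein genes carry the symbols MRPL, for proteins named after the large subunit, and MRPS, for proteins named after the small subunit, each followed by a number and at times a letter. By that pattern 77 of the 24462 gene symbols in the deposited count files were members, 48 of them MRPL and 29 MRPS. The pattern itself uses no measured value. MRPS18B stood on several entries of the files, of which 1 held reads, and the entries of a symbol were summed. Pseudogenes and antisense transcripts of the family, such as MRPL45P2 and MRPL23-AS1, do not match the pattern and were not members.

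The samples were 3 groups of 3 libraries from U-373MG, a human glioblastoma astrocytoma line long kept in culture. Control cells were untreated. The second group received the peptide NnK-1 and the third the peptide CBRV1-10493, each at a dose of 200 nM and for 48 h. Both are synthetic peptides after jellyfish sequences that resemble ShK, a potassium channel toxin of sea anemones. Both peptides were set against the same 3 control libraries, for which the labels name no vehicle, and all groups come from 1 cell line.

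The mitochondrial ribosome translates the few messenger RNAs made from mitochondrial DNA, which encode core subunits of the respiratory chain and of ATP synthase. Its ribosomal RNAs come from mitochondrial DNA, while all of its proteins are encoded in the nucleus, made in the cytosol and imported. The small subunit reads the messenger RNA, and the large subunit joins the amino acids and passes the new chain through its exit tunnel to the inner membrane. Some of the proteins have a counterpart in bacterial ribosomes and others were added in the mitochondrial lineage. Symbols do not always give the place of the protein: MRPS30 and MRPS18A sit in the large subunit of the human mitochondrial ribosome, and the protein of MRPS36 belongs to the 2-oxoglutarate dehydrogenase complex and not to the ribosome.

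The total counts per library ranged from 11203094 to 13491075. Of the astrocyte and glioma markers, VIM stood at 5576 CPM (counts per 1000000 of the library total) in control cells, NES at 1434 CPM and GFAP at 23.4 CPM, while the water channel AQP4 was nearly absent at 0.0265 CPM. EPCAM, CD3E, MOBP and CLDN5, which mark epithelial cells, T cells, oligodendrocytes and endothelium, had 0 reads in all 9 libraries. NnK-1 replicate 2 and CBRV1-10493 replicate 1 lay apart from the other libraries on the first and the second principal component of all genes tested (52.1 and -44.9). In bulk RNA, fewer cells with a transcript and less of it per cell cannot be told apart.

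Promoters of the family show a sequence feature that the choice of members did not use, and they are shown here because many of these promoters hold the same short motifs. RefSeq promoter windows (GRCh38.p14, 250 bases before to 50 after the gene start) were matched by symbol for 68 of the 77 members. On both strands, CCGGAAG, the core bound by ETS factors such as GABP (also called NRF-2), was in 41.2% of the members' windows, against 18.9% of the windows of the 10032 tested genes that had one and 10.7% of all 27305. AAGATGGCG, the core of the YY1 motif, was in 19.1% of the members' windows, against 4.01% for tested genes and 1.85% for all. The motif of nuclear respiratory factor 1 (NRF1), the capitals in the MRPL14 sequence with the sixth base free, was in 11.8% of the members' windows, a share close to the 11.9% for tested genes, and in 6.28% of all. The ETS and YY1 motifs can overlap by shared bases. ETS and NRF1 matches mostly lay before the gene start (25 of 28 and 8 of 8 members with a match), while for YY1 10 of 13 members had matches only after it. A match describes the letters and is not evidence of a bound factor.

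The next lines give the 130 bases before the gene start for 4 of the 5 members with the highest level in control cells, all with the ETS core, and for MRPL14, which had the smallest unadjusted p of the family with NnK-1. Capitals mark a motif match on either strand. The windows are chr2:27771589-27771718 (plus strand) for MRPL33, chr1:150293731-150293860 (plus) for MRPS21, chr16:1773135-1773264 (minus) for MRPS34, chr1:1407294-1407423 (minus) for MRPL20 and chr6:44127309-44127438 (minus) for MRPL14, all GRCh38.p14.
MRPL33: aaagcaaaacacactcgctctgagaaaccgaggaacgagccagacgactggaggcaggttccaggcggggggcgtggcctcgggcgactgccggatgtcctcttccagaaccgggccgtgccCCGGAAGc
MRPS21: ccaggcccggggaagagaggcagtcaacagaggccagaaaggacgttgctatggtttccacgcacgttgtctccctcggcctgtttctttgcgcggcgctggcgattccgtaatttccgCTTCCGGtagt
MRPS34: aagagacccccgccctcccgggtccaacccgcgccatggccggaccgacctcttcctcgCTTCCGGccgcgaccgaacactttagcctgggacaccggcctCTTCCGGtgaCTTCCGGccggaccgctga
MRPL20: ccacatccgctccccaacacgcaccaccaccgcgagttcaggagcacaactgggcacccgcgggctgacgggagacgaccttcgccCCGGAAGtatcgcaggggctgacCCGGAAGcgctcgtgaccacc
MRPL14: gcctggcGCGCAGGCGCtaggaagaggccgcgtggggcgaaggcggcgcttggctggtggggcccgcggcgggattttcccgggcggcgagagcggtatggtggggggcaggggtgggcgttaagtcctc
In these 130 bases MRPL33 and MRPS21 each hold 1 ETS core within a few bases of the start, MRPL20 holds a pair and MRPS34 holds 3. The whole window of MRPS21 holds 2. In the fifth of the most abundant members, MRPL41, none of the motifs was found in the window. Members with the ETS core in the 300-base window had a median of 64.3 CPM in control cells (28 members) and those without it 54.7 CPM (40 members). For the YY1 core the order was the other way, at 42.2 CPM with it (13 members) and 61.9 CPM without it (55 members).

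In untreated cells every member was expressed. All 77 had reads in all 9 libraries, all lay above 5 CPM in control cells, and 17 lay above 100 CPM. The library method is designed to give 1 tag per transcript, read near its 3′ end, so levels of different genes are given per tag, with no division by length. The sources used here do not say whether copied reads were removed. The part of reads from pseudogenes was not tested. The median was 60.1 CPM for MRPL symbols (lowest 9.04, highest 472) and 54.0 CPM for MRPS symbols (lowest 13.6, highest 256). Members with a bacterial counterpart and those specific to mitochondria had medians of 61.6 and 57.7 CPM among MRPL symbols and of 53.5 and 57.9 CPM among MRPS symbols. The family took 0.587% of all counts in control cells, and its 5 most abundant members made up 23.2% of that.

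**Figure D1:**
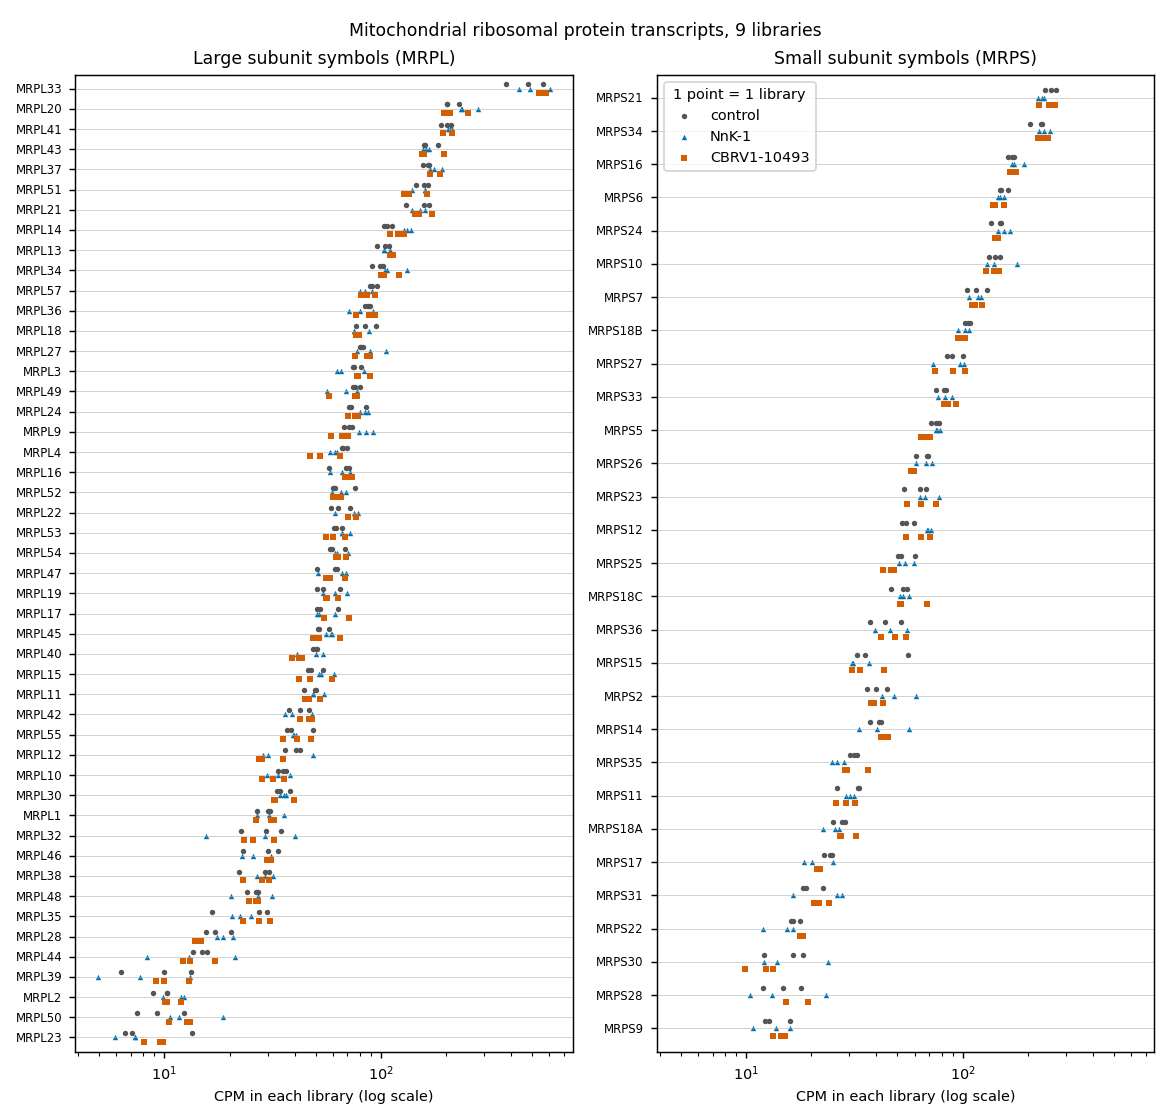
CPM of each of the 77 members in each of the 9 libraries on a log axis, MRPL symbols on the left and MRPS symbols on the right, ordered by the control mean. Within a row the 3 groups lie close together relative to the distance from the lowest member (MRPL23, 9.04 CPM in control) to the highest (MRPL33, 472 CPM).

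MRPL33, whose protein is a small component of the large subunit with a bacterial counterpart, was the most abundant member at 561, 477 and 378 CPM in the control libraries. It stood at 604, 436 and 488 CPM with NnK-1 and at 575, 536 and 577 CPM with CBRV1-10493. The control and NnK-1 libraries spread widely and all groups overlapped. MRPL33 shares exon sequence with BABAM2 on the same strand in the GENCODE annotation, and the sources used here do not say how shared exons were counted. Next in order came MRPS21 at 256 ± 15.1 CPM, MRPS34 at 222 ± 15.6, MRPL20 at 211 ± 17.2 and MRPL41, a protein specific to mitochondria, at 201 ± 11.3 CPM (control mean ± SD, n = 3). The control ranges of MRPS34, MRPL20 and MRPL41 overlapped, while MRPS21 lay above all 3. Within each control library MRPS34 was above MRPL41 (204, 229 and 233 against 189, 203 and 212 CPM). MRPL20 (201, 231 and 201 CPM) changed its place beside them from library to library.

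At the lower end, MRPL23 stood at 9.04 ± 3.79 CPM in control cells, MRPL50 at 9.71 ± 2.46, MRPL2 at 9.79 ± 0.844, MRPL39 at 9.85 ± 3.51 and MRPS9 at 13.6 ± 2.01 CPM (n = 3). The control libraries of the first 4 overlapped, so their order lies within the spread. MRPL23 and MRPL2 are counterparts of bacterial proteins of the large subunit, and the MRPL2 protein lies by the catalytic centre.

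The 3 paralogs of bacterial protein S18 were expressed at different levels. MRPS18B stood at 103, 109 and 106 CPM in control cells, MRPS18C at 52.9, 55.1 and 46.5 CPM and MRPS18A at 28.5, 25.2 and 27.8 CPM, and the 3 ranges did not overlap. The order held under NnK-1 (102 ± 6.14, 53.7 ± 2.83 and 25.1 ± 2.13 CPM) and under CBRV1-10493 (99.1 ± 3.65, 57.3 ± 9.86 and 28.98 ± 2.77 CPM). MRPS36, the member that is no ribosomal protein, averaged 44.4 ± 7.19 CPM without peptide, 46.9 ± 8.13 under NnK-1 and 48.6 ± 6.31 under CBRV1-10493, with overlap between all groups.

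Spread between libraries of a group, after counting noise is taken out, was estimated by edgeR, which draws each gene's value toward the trend with level. By these estimates it was smaller for the members than for genes at large. The median biological coefficient of variation was 11.2% over members and 15.5% over all 13676 genes tested. Over the 9289 tested genes within the members' range of level it was 12.8%, with no matching of level inside that range. Among members it ran from 8.64% for MRPS6 to 25.9% for MRPL39, and the abundant MRPL41, MRPS24, MRPS16 and MRPS21 were all under 9% (8.69%, 8.76%, 8.87% and 8.88%). MRPS6 shares exon sequence with SLC5A3 on the same strand.

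The large and small subunits were then set against each other within each library. Summed over MRPL symbols the control libraries held 3773, 3600 and 3624 CPM, the NnK-1 libraries 4006, 3728 and 3719 CPM and the CBRV1-10493 libraries 3920, 3726 and 3701 CPM. The ranges overlapped. Summed over MRPS symbols the control libraries held 2185, 2189 and 2236 CPM, those with NnK-1 2247, 2258 and 2226 CPM and those with CBRV1-10493 2191, 2211 and 2170 CPM. All 3 NnK-1 libraries were above all 3 CBRV1-10493 libraries in this sum, and the control libraries overlapped both. The ratio of MRPL to MRPS counts averaged 1.66 ± 0.0558 without peptide, 1.70 ± 0.0712 under NnK-1 and 1.73 ± 0.0552 under CBRV1-10493 (n = 3), and the libraries of all groups overlapped. This ratio depends on the number of symbols summed, 48 MRPL against 29 MRPS, and does not compare the level of a typical member. With MRPS30 and MRPS18A counted in the large subunit and MRPS36 left out, the ratios were 1.75, 1.79 and 1.82. Without the 3 most abundant members of each subunit they were 1.79, 1.78 and 1.82, so NnK-1 was then level with control. As a ratio of the median MRPL to the median MRPS level the order turned, at 1.14 in control libraries, 1.08 with NnK-1 and 1.07 with CBRV1-10493.

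**Figure D2:**
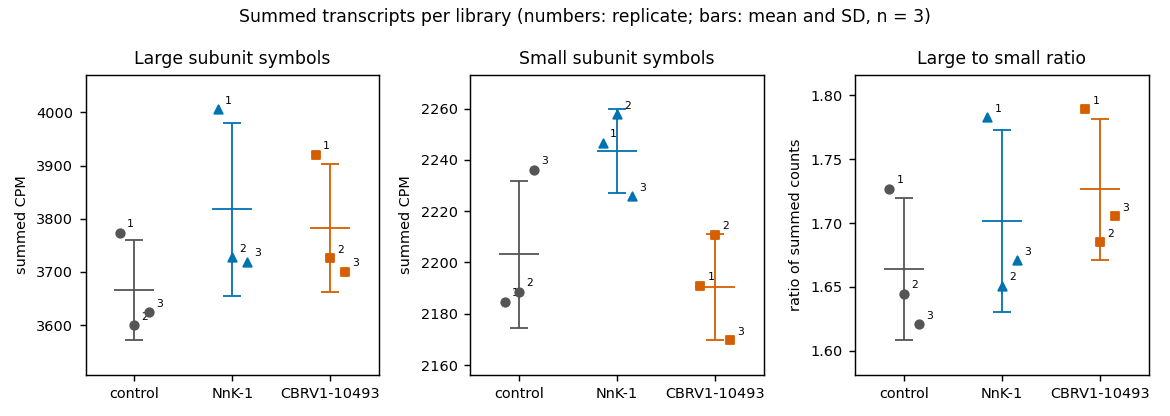
Summed CPM of MRPL symbols, summed CPM of MRPS symbols and the ratio of their summed counts in each library, with the replicate number beside each point and bars for the mean and SD (n = 3); the axes do not start at 0. The ratio overlaps between all groups, and replicate 1 has the highest ratio of its group in control (1.73), NnK-1 (1.78) and CBRV1-10493 (1.79).

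The comparison of NnK-1 with untreated cells asked whether the peptide changes the family's transcripts. No member passed. By edgeR's quasi-likelihood test with Benjamini-Hochberg adjustment over 13676 genes, 0 of 77 members and 0.0% of all genes had an adjusted p under 0.05, and the smallest adjusted p of a member was 0.578. Before adjustment 7 members had a p under 0.05, or 9.09% against 7.32% of all genes. All 7 were higher and 0 lower, where 3.76% of all genes were higher and 3.56% lower at that p. The log2 fold change was above 0 for 50 members and below 0 for 27, and its median was 0.05, against 0.00 over all genes tested and 50.6% of those above 0. The median was 0.04 for the 48 MRPL symbols and 0.06 for the 29 MRPS symbols. The 95% interval stayed within 0.5 on the log2 scale (1.41-fold) to either side for 60 members, and within 1 (2-fold) for 76. The exception, MRPL50, had an interval from 0.00 to 1.03. Of all 13676 genes tested, 5835 had an interval within 0.5 and 10374 within 1.

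MRPL14, a counterpart of a bacterial protein on the face that meets the small subunit, stood at 133, 138 and 128 CPM with NnK-1 and at 103, 112 and 107 CPM in control cells. Every NnK-1 library was above every control library. The log2 fold change was 0.34 (95% interval 0.13 to 0.55, unadjusted p = 0.00345), and the adjusted p of 0.578 did not pass. MRPS12, the counterpart of the bacterial protein at the decoding centre, stood at 68.5, 71.4 and 69.0 CPM with NnK-1 and at 54.7, 52.5 and 59.4 CPM in control cells, again without overlap (log2 fold change 0.35, interval 0.10 to 0.61). MRPS12 shares exon sequence with SARS2, the mitochondrial seryl-tRNA synthetase, on the other strand, and the sources used here do not say whether the counting used strand.

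MRPL9, a large subunit protein with a bacterial counterpart, stood at 78.9, 92.2 and 85.5 CPM with NnK-1 and at 67.8, 71.5 and 73.3 CPM in control cells (0.30, interval 0.06 to 0.54). MRPL20, an RNA-binding protein of the large subunit, stood at 234, 280 and 237 CPM against 201, 231 and 201 CPM (0.28, interval 0.04 to 0.52). Both had no overlap between the groups, and for MRPL20 the value was 0.17 without NnK-1 replicate 2. MRPS2 stood at 42.4, 61.1 and 48.1 CPM against 36.2, 39.8 and 44.5 CPM, with overlap. Its log2 fold change of 0.36 became 0.18 without NnK-1 replicate 2. MRPL50 had the largest value, 0.52, from 18.6, 10.6 and 11.7 CPM against 12.4, 9.29 and 7.49 CPM; without NnK-1 replicate 1 it was 0.24.

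On the lower side MRPL23 had the lowest value, -0.37 (interval -0.95 to 0.22), from 7.33, 7.32 and 5.94 CPM with NnK-1 against 13.4, 6.59 and 7.12 CPM. It rested on control replicate 1, without which it was 0.02. MRPS15, a small subunit protein with a bacterial counterpart, rested on the same library: its log2 fold change was -0.29 with it and -0.02 without it. MRPS35, a small subunit protein specific to mitochondria, stood at 28.3, 24.9 and 26.4 CPM against 31.6, 30.3 and 32.4 CPM, with no overlap (-0.22, interval -0.52 to 0.09). MRPS22, also specific to mitochondria, lay at -0.17 (-0.05 without NnK-1 replicate 3), MRPL39 at -0.17 and MRPL49 at -0.16, which became -0.06 without NnK-1 replicate 2 and -0.25 without NnK-1 replicate 1. MRPL39 changed sign without control replicate 1 (0.10) or NnK-1 replicate 2 (0.09), and stood at -0.59 without NnK-1 replicate 1 and at -0.41 without control replicate 3.

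The NnK-1 and control libraries did not overlap for 10 members, 13.0%, which equals the 13.0% of all genes tested. Of these 7 were higher with NnK-1 (MRPL9, MRPL14, MRPL20, MRPL34, MRPL37, MRPL53 and MRPS12), and 3 were lower (MRPL4, MRPS21 and MRPS35). Over all genes tested 5.08% were separated upward and 7.92% downward. MRPL34 stood at 0.25 (interval 0.01 to 0.49; 0.15 without NnK-1 replicate 1), MRPL37 at 0.16 (0.09 without NnK-1 replicate 2) and MRPL53 at 0.14. For MRPL53 the lowest NnK-1 library (65.96 CPM) and the highest control library (65.90 CPM) nearly met. For MRPS21 the highest NnK-1 library (237 CPM) and the lowest control library (240 CPM) lay close. MRPL4 and MRPS21 both stood at -0.12 (-0.08 without NnK-1 replicate 1 and -0.07 without control replicate 3).

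**Figure D3:**
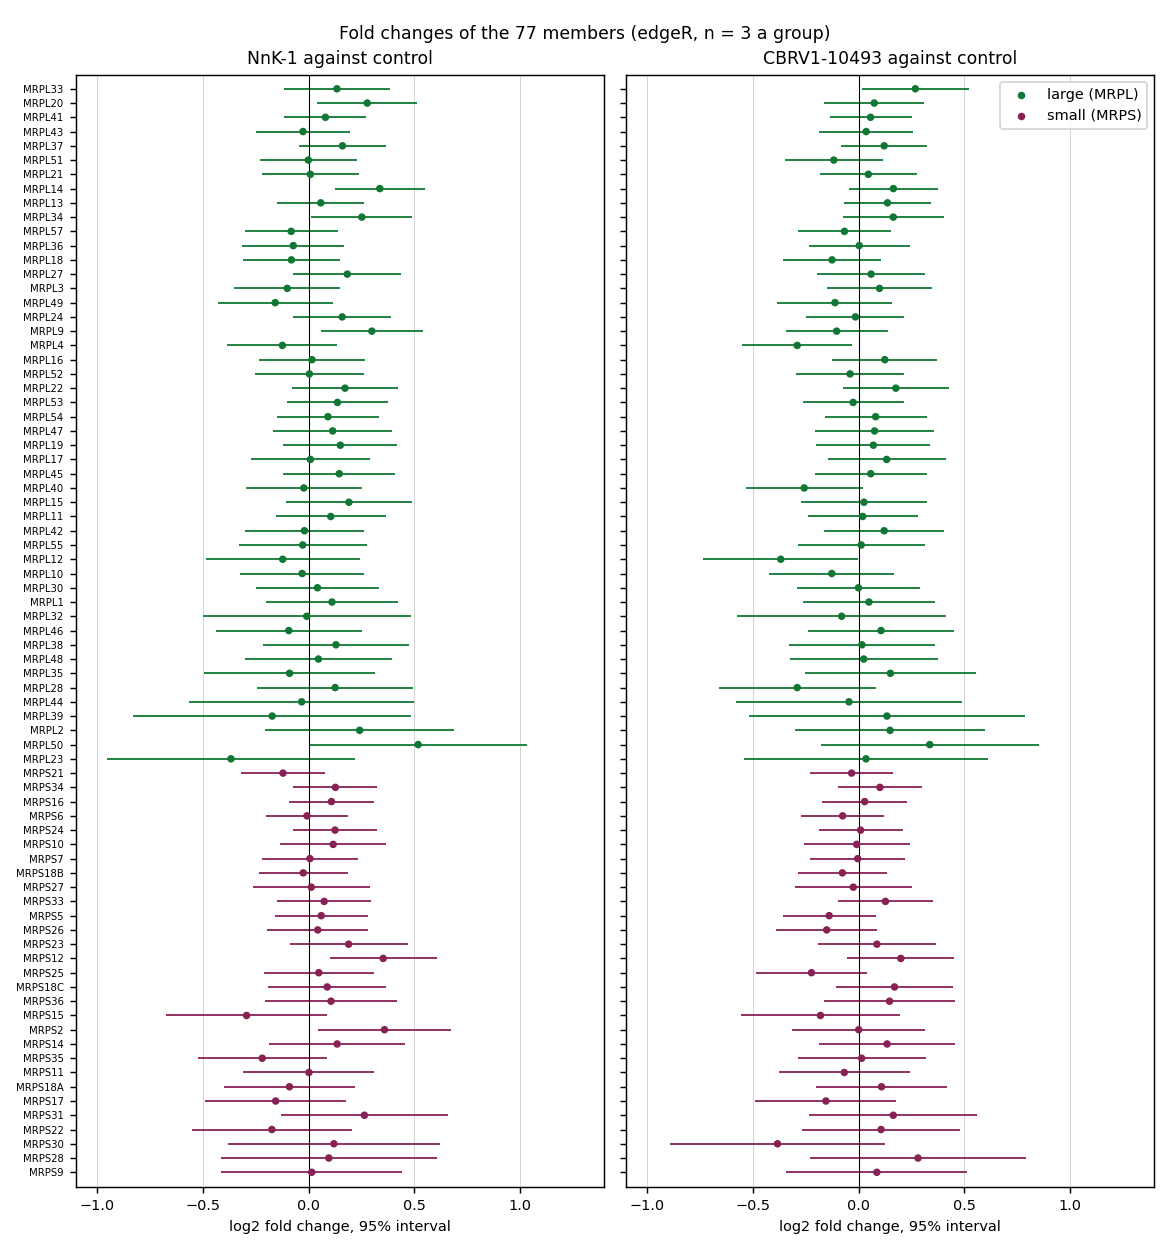
Log2 fold change of each member against control with NnK-1 (left) and CBRV1-10493 (right); points are edgeR estimates, lines their 95% intervals (n = 3 a group), MRPL symbols above MRPS symbols and each ordered by control level. Most intervals cover 0 and widen toward the low members, and the same control libraries enter both panels.

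CBRV1-10493 was compared with untreated cells in the same way, and again no member passed. By edgeR's quasi-likelihood test 0 of 77 members and 0.0% of all genes had an adjusted p under 0.05, and the members' adjusted p came to 1.00 at the least. Before adjustment 3 members had a p under 0.05, or 3.9% against 2.89% of all genes. MRPL33 was higher (1.34% of all genes were) and MRPL4 and MRPL12 were lower (1.55% of all genes were). The log2 fold change was above 0 for 48 members and below 0 for 29, where 50.8% of all genes lay above 0. The median was 0.03 (0.00 over all genes tested), 0.04 for MRPL symbols and 0.0094 for MRPS symbols. It was -0.0049 without control replicate 2, so its sign rested on that library. The 95% interval stayed within 0.5 on the log2 scale for 60 members and within 1 for all 77. Of the 13676 genes tested it did so for 6389 and 10535.

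MRPL12, the counterpart of the bacterial stalk protein, which is also known to bind the mitochondrial RNA polymerase, stood at 27.3, 28.1 and 35.5 CPM with CBRV1-10493 and at 42.1, 36.1 and 40.3 CPM in control cells. The groups did not overlap, though the highest treated and the lowest control library lay close. The log2 fold change was -0.37 (interval -0.74 to -0.0017, unadjusted p = 0.0491, edgeR). With NnK-1 its libraries spread widely, at 48.4 CPM above all control libraries and at 29.99 and 28.6 CPM below them. MRPL4, whose protein lines the exit tunnel, stood at 46.8, 52.5 and 64.8 CPM against 66.1, 66.9 and 69.6 CPM, without overlap (-0.29, interval -0.55 to -0.03).

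MRPL28, a counterpart of a bacterial protein, stood at 14.4, 13.8 and 14.8 CPM against 17.1, 15.6 and 20.4 CPM (-0.29; -0.17 without control replicate 3). The mitochondria-specific MRPL40 stood at 43.3, 41.7 and 39.0 CPM against 50.1, 50.9 and 48.8 CPM (-0.26, interval -0.53 to 0.02), and MRPS25, a mitochondria-specific protein of the small subunit, at 46.5, 42.7 and 48.3 CPM against 51.7, 60.1 and 50.3 CPM (-0.22; -0.14 without control replicate 2). In these members all CBRV1-10493 libraries were below all control libraries. MRPS30, a protein of the large subunit despite its symbol, had the lowest value at -0.38 (interval -0.89 to 0.12), with groups that overlapped at 13.3, 9.83 and 12.3 against 18.3, 12.1 and 16.4 CPM.

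The highest values were those of MRPL50 at 0.34, MRPS28 at 0.28, MRPL33 at 0.27 (interval 0.02 to 0.52), MRPS12 at 0.20, MRPL22 at 0.18 and MRPS18C at 0.17. Without control replicate 3 MRPL50 was at 0.18, MRPS28 at 0.15, MRPL33 at 0.14, MRPL22 at 0.27 and MRPS18C at 0.11. Without control replicate 1 MRPL50 was at 0.54, MRPS28 at 0.43 and MRPL33 at 0.41, and without control replicate 2 MRPL22 was at 0.11. The groups of all 6 overlapped. For MRPS12 the libraries held 70.6, 63.9 and 54.9 CPM, and its value was 0.11 without CBRV1-10493 replicate 1. For MRPS18C that library alone stood high, at 68.6 CPM beside 52.1 and 51.1 CPM in the other two, and without it the value was 0.01.

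The CBRV1-10493 and control libraries did not overlap for 11 members, 14.3% against 8.88% of all genes tested. Of these 9 were lower (MRPL4, MRPL12, MRPL28, MRPL40, MRPS5, MRPS17, MRPS18B, MRPS25 and MRPS26), or 11.7% against 4.96% of all genes, and 2 were higher (MRPL13 and MRPL37), or 2.6% against 3.91%. The share separated downward was thus above that of all genes, while the median fold change of the family lay above 0. MRPS5, MRPS17, MRPS18B and MRPS26 stood at -0.14, -0.15, -0.08 and -0.15, with MRPS18B at -0.05 without CBRV1-10493 replicate 3. The highest CBRV1-10493 and the lowest control library lay close for MRPS5 (71.0 and 71.6 CPM), MRPS18B (102.4 and 102.7) and MRPS26 (59.7 and 60.8). MRPL13 and MRPL37 stood at 0.14 and 0.12, the latter at 0.06 without CBRV1-10493 replicate 1.

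**Figure D4:**
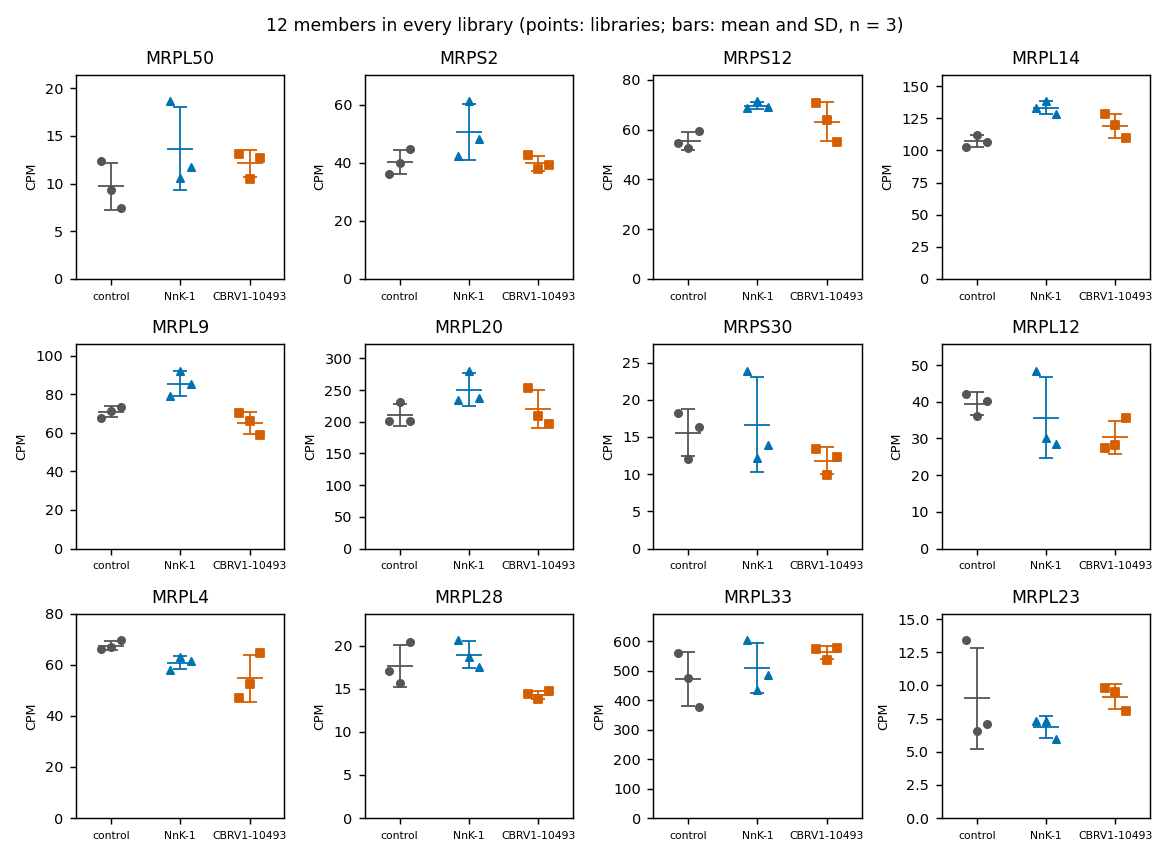
CPM of 12 members in each library, with bars for the mean and SD (n = 3) and axes from 0. MRPL14, MRPS12, MRPL9 and MRPL20 show NnK-1 libraries above the control libraries, MRPL12, MRPL4 and MRPL28 show CBRV1-10493 libraries below them, and MRPL33 and MRPL23 show the spread within control.

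The peptides, given at the same dose for the same time, were also compared directly. No member differed by edgeR's quasi-likelihood test (0 of 77, and 0.0% of all genes, smallest adjusted p of a member 0.994). Before adjustment 4 members had a p under 0.05, or 5.19% against 4.31% of all genes. These were MRPL9, MRPL28, MRPS2 and MRPS25, all lower with CBRV1-10493, where 2.35% of all genes were lower and 1.96% higher at that p. The log2 fold change of CBRV1-10493 over NnK-1 was above 0 for 28 members and below 0 for 49, where 50.3% of all genes lay above 0. Its median was -0.04 (-0.0095 without NnK-1 replicate 1), against 0.00 over all genes tested. The interval stayed within 0.5 to either side for 57 members and within 1 for 76, the exception being MRPS30. Of the 13676 genes tested it did so for 6160 and 10465.

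MRPL9 was the member with the smallest unadjusted p here (0.00239, edgeR). It stood at 70.5, 66.2 and 59.0 CPM with CBRV1-10493 and at 78.9, 92.2 and 85.5 CPM with NnK-1, without overlap, a log2 fold change of -0.40 (interval -0.65 to -0.16). MRPL28 stood at 14.4, 13.8 and 14.8 against 20.6, 18.7 and 17.6 CPM, also without overlap (-0.42, interval -0.79 to -0.04). MRPS2 lay at -0.36 (interval -0.67 to -0.05), and at -0.18 without NnK-1 replicate 2. MRPS30 lay at -0.50 (interval -1.01 to 0.00), with NnK-1 replicate 1 at 23.9 CPM beside 12.1 and 13.9 CPM in the other two, and at -0.17 without that library.

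On the higher side MRPL23 stood at 9.84, 9.50 and 8.09 CPM with CBRV1-10493 against 7.33, 7.32 and 5.94 CPM with NnK-1, without overlap (0.40, interval -0.19 to 0.99). MRPS22 stood at 18.3, 17.7 and 17.7 against 16.4, 15.4 and 11.96 CPM (0.28, interval -0.10 to 0.66; 0.15 without NnK-1 replicate 3). MRPL39 lay at 0.31, with values from 0.04 without NnK-1 replicate 2 to 0.73 without NnK-1 replicate 1 (0.15 without CBRV1-10493 replicate 2), and MRPL35 at 0.24 (0.14 without CBRV1-10493 replicate 2). The peptides' libraries did not overlap for 12 members, 15.6% against 8.88% of all genes tested, 5 of them higher (MRPL13, MRPL23, MRPS18A, MRPS22 and MRPS35) and 7 lower (MRPL9, MRPL14, MRPL24, MRPL28, MRPS5, MRPS25 and MRPS26) with CBRV1-10493. Over all genes tested 4.71% were separated upward and 4.17% downward. For MRPL14 the highest CBRV1-10493 library (128.035 CPM) and the lowest NnK-1 library (128.24 CPM) nearly met.

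Other genes of mitochondrial translation gave the setting of these values. Mitochondrial ribosome subunits under other symbols (DAP3, CHCHD1, AURKAIP1, PTCD3, GADD45GIP1 and ICT1) were all 6 tested and none passed. Their median log2 fold change was -0.06 with NnK-1 and -0.07 with CBRV1-10493. ICT1, a peptidyl-tRNA hydrolase built into the large subunit, stood at -0.20 with NnK-1 (-0.12 without control replicate 1, -0.30 without NnK-1 replicate 1) and at -0.23 with CBRV1-10493. With NnK-1 CHCHD1 stood at -0.21 and PTCD3 at 0.11, and without NnK-1 replicate 2 these were -0.01 and 0.03. Without NnK-1 replicate 1 they were -0.49 and 0.19, and CHCHD1 was at -0.10 without control replicate 1 and at -0.34 without control replicate 2. With CBRV1-10493 GADD45GIP1 stood at 0.10 (0.06 without CBRV1-10493 replicate 2, 0.16 without replicate 3) and AURKAIP1, the most abundant of them at 255 CPM in control cells, at -0.08 (-0.02 without control replicate 1, -0.12 without control replicate 2).

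Translation factors of mitochondria, 13 genes, had 10 members above 0 with NnK-1 and a median of 0.24, and none passed by edgeR. Over all genes tested 50.6% lay above 0. TUFM, the elongation factor that brings charged transfer RNAs to the ribosome, stood at 157, 228 and 161 CPM with NnK-1 and at 142, 150 and 148 CPM in control cells (0.34, interval 0.05 to 0.64; 0.13 without NnK-1 replicate 2). MTFMT, which formylates the initiator methionine, stood at 37.1, 33.1 and 38.6 against 24.7, 28.9 and 29.6 CPM (0.41, interval 0.11 to 0.72). GFM2, a factor of ribosome recycling, stood at 0.27 (0.16 without NnK-1 replicate 2) and shares exon sequence with NSA2 on the other strand. These 3 genes, named because they had the smallest p of the list, had no overlap between NnK-1 and control. Of all genes tested 13.0% had no overlap, with 5.08% higher under NnK-1. The list's median was 0.09 without NnK-1 replicate 2, the library that held the highest TUFM and GFM2 values, 0.13 without control replicate 3 and 0.16 without NnK-1 replicate 1. With CBRV1-10493 the median was 0.05, with TSFM, the exchange factor of TUFM, at 0.44 (interval -0.01 to 0.89; 0.72 without control replicate 1), the release factor MTRF1 at 0.52 and TACO1 at 0.19.

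Assembly factors of the mitochondrial ribosome, 25 genes, had 15 members above 0 with NnK-1 (median 0.05) and 14 with CBRV1-10493 (median 0.02), and none passed. Over all genes tested 50.6% lay above 0 with NnK-1 and 50.8% with CBRV1-10493. The largest values with NnK-1 among those of smallest p were RBFA, a ribosome-binding factor of the small subunit, at 0.51, the helicase DDX28 at 0.44 and WBSCR16 at 0.32. Without NnK-1 replicate 2 these were 0.23, 0.27 and 0.16, and WBSCR16 was at 0.21 without control replicate 1. With CBRV1-10493 YBEY, an endonuclease, stood at 3.06, 2.95 and 3.96 CPM against 7.39, 5.48 and 5.56 CPM, without overlap (-0.87, interval -1.55 to -0.19), FASTKD2 at -0.26 (-0.16 without CBRV1-10493 replicate 2) and NOA1 at 0.19. Genes of mitochondrial transcription and messenger RNA handling, 11 genes, had 3 above 0 with NnK-1 and 4 with CBRV1-10493 (medians -0.07 and -0.04). TFB2M stood at 17.5, 7.41 and 7.26 CPM with NnK-1, and its log2 fold change of 0.63 became 0.10 without replicate 1 of that group. With CBRV1-10493 TFB2M stood at 0.42 (0.27 without control replicate 3). SLIRP stood at -0.13 with NnK-1 (-0.08 without control replicate 3), and PNPT1 at -0.34 (-0.14 without NnK-1 replicate 2, -0.73 without replicate 1). With CBRV1-10493 MTERF2 stood at 0.49 (0.28 without control replicate 3 or CBRV1-10493 replicate 3, 0.76 without control replicate 2) and the mitochondrial RNA polymerase POLRMT at -0.25 (-0.15 without control replicate 3).

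Of 10 transcription factors and coactivators tied to mitochondrial genes, 5 were above 0 with NnK-1 and 3 with CBRV1-10493 (medians -0.0023 and -0.03), and none passed. The shares of all genes above 0 were 50.6% and 50.8%. NRF1 stood at 9.56, 17.4 and 16.5 CPM with NnK-1, 9.93, 8.84 and 12.3 CPM with CBRV1-10493 and between 13.2 and 13.6 CPM in the control libraries, so that all CBRV1-10493 libraries lay below control (-0.36, interval -0.86 to 0.13). GABPA stood at 14.9, 14.003 and 16.8 CPM with CBRV1-10493, above the control libraries at 13.2, 12.1 and 13.49 CPM, a log2 fold change of 0.25. Its value of 0.25 with NnK-1 turned to -0.19 without NnK-1 replicate 1 and was 0.51 without NnK-1 replicate 3. PPARGC1A stood at 0.38 with NnK-1 (0.66 without control replicate 1, 0.20 without control replicate 3) and at 0.51 with CBRV1-10493 (0.79 and 0.33). With NnK-1 PPRC1 stood at -0.31 and GABPB1 at -0.24. Without NnK-1 replicate 2 these were -0.07 and -0.11, without NnK-1 replicate 3 -0.49 and -0.42, and GABPB1 was at -0.14 without control replicate 3. No symbol began with MT-, the prefix of mitochondrially encoded genes, and the messenger RNAs that this ribosome translates were not analysed here.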

How the data were processed

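Expression was measured in 9 libraries of U-373MG cells made with QuantSeq for 3′ ends, per the labels. The submitters' processing notes name Bowtie2, bedtools and hg19, with no version, annotation or strand setting. Each deposited file holds the raw read counts of 1 library by gene symbol, with no normalization. Entries of a symbol were summed (25737 entries, 24462 symbols), and CPM is count over library total times 1000000. Overlap between groups was judged on CPM, without the TMM factors that enter the fold changes. These factors ran from 0.9701 (NnK-1 replicate 2) to 1.014 (control replicate 1). Groups that lay close on CPM may therefore overlap once scaled, which was not tested. The 13676 genes kept by filterByExpr of edgeR (minimum count 10, minimum total 15) entered edgeR 4.0.16 (R 4.3.3) with TMM factors, and 1 quasi-likelihood model over the 9 libraries gave the 3 comparisons, two-sided, adjusted by Benjamini-Hochberg over all genes tested and called under 0.05. The replicates of each group differed by more than counting noise (chi-square per gene at least 6.78), so each counted as 1 sample. Separate cultures are not named in the labels, so the p-values rest on the spread of these samples alone, part of which may be technical.

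The fit was tested on simulated data for NnK-1 against control, 3 simulations of 200 changed genes among 13448 to 13460 tested: it recovered 34.8% of the genes with a 1.5-fold change, 66.7% at 2-fold and 80.8% at 3-fold. It also called 23 unchanged genes over the 3 simulations. The changed genes were drawn from all genes tested and not from the family, so these rates are not those of the members. Recovery after adjustment also depends on how many genes change, and the real comparison called 0 of 13676. The simulated counts held no library that lay apart. The rates may thus be higher than those in the real data. The family and its pattern, the gene lists, the motifs and the tests were chosen with earlier results of these data known. Among members averaging 5 CPM or more, those named are the 6 largest and 6 smallest fold changes per peptide (4 and 4 between peptides), the 5 highest and 5 lowest in control, MRPL12, MRPS18A, MRPS18B, MRPS18C, MRPS30 and MRPS36, and up to 3 genes of smallest p per list. Members whose groups do not overlap or with an unadjusted p under 0.05 are named in addition, after their values were seen. Alternatives were DESeq2 1.42.0, limma-voom (limma 3.58.1), edgeR's exact test, other scalings and filters, only the 6 libraries compared, a replicate block and each library left out. Promoters came from RefSeq (GRCh38.p14), and overlaps of exons from GENCODE on GRCh38, used only for which genes overlap.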

Additional observations from a re-analysis of the deposited data

How the results depend on the processing

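No member passed in any comparison under any of the 21 alternatives, though by DESeq2 35 of the 77 had no adjusted p with NnK-1 and could not pass. Over all genes NnK-1 gave 74 calls of 18756 with no filter on low counts, 8 by edgeR's exact test and 4 by DESeq2, CBRV1-10493 gave 6 with no filter and 2 by the exact test, and the peptides differed for 1 with no filter. All other alternatives gave 0. The median log2 fold change of the members ranged from 0.02 to 0.07 with NnK-1 and from -0.07 to -0.01 between the peptides. With CBRV1-10493 it ranged from -0.0049 to 0.06. With each library left out in turn the medians ran from 0.04 to 0.07, from -0.0049 to 0.06 and from -0.06 to -0.01. Members above 0 numbered 42 to 54, 37 to 49 and 26 to 38. With the replicate block the medians were 0.05, 0.03 and -0.04 and 0 members passed. The replicate numbers are not shown to pair libraries (correlations of same-numbered deviations from -0.0566 to 0.132), and the block changed no call. The 32 fold changes of members named as largest or smallest had 672 values under alternatives, of which 4 changed sign. MRPL23 with NnK-1 did so without control replicate 1 (0.0234, the other values reaching down to -0.551). MRPL39 with NnK-1 did so without control replicate 1 (0.103, the other values reaching down to -0.593) and without NnK-1 replicate 2 (0.0937). MRPL39 also did so without both libraries that lay apart (0.0955, chosen after seeing the data). Other named genes are not in this count, among them GABPA, whose value with NnK-1 changed sign without NnK-1 replicate 1. The ratio of large to small subunit counts in control, NnK-1 and CBRV1-10493 libraries was 1.75, 1.79 and 1.82 by place in the structure, 1.79, 1.78 and 1.82 without the 3 most abundant members of each subunit, and 1.14, 1.08 and 1.07 as a ratio of medians, which does not grow with the number of members. With a library left out it ran from 1.63 to 1.69, from 1.66 to 1.73 and from 1.70 to 1.75. Counts of members without overlap rose when a library was left out: 14 to 23 with NnK-1 (10 with all), 15 to 22 with CBRV1-10493 (11) and 13 to 24 between the peptides (12). The shares of all genes rose too, to 20.9% to 28.8%, 17.3% to 20.1% and 16.1% to 23.8%. The half-width of the 95% interval with NnK-1 ran from 0.19 to 0.66 on the log2 scale (median 0.27); members of like level differed, with MRPL2 at 0.449 and MRPL39 at 0.657. The parts of depth and of spread between libraries were not tested.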

Other observations

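Replicate 1 had the highest level of its group in all 3 groups for 8 members (MRPL19, MRPL33, MRPL34, MRPL50, MRPS17, MRPS18A, MRPS28 and MRPS30), 10.4% of the family against 4.25% of all genes tested. The corresponding shares were 3.9% against 4.11% for replicate 2 and 1.3% against 2.68% for replicate 3. The labels do not say what a replicate number stands for, and its part in these values was not tested. The library with the highest level of its group was CBRV1-10493 replicate 1 for 40 of the 77 members (51.9%, against 36.2% of all genes), while control replicate 2 was the highest of its group for 15 (19.5%, against 31.5%).

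Exon sequence is shared with another annotated gene for 41 of the 77 members in GENCODE on GRCh38, on the same strand for 16 and on the other strand for 29. Such pairs include MRPL28 with TMEM8A, MRPS16 with DNAJC9, MRPL49 with FAU and MRPS22 with COPB2. FAU encodes a cytosolic ribosomal protein precursor. For these members the deposited counts may hold reads of the partner, or the partner theirs, and this was not tested.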
